A study of Mus musculus with 5 samples.

Results

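The genes described here are the 5 CCN family genes Cyr61 (Ccn1), Ctgf (Ccn2), Nov (Ccn3), Wisp1 (Ccn4) and Wisp2 (Ccn5), together with Ankrd1 and Amotl2, which are widely used as readouts of the transcriptional co-activators YAP and TAZ. They were picked by name, with their levels in these libraries already known, and all 7 have a row among the 18044 genes of the deposited table. Cyr61 alone separated the libraries by label: its normalized read count was 1314 and 3556 in the positive-labelled libraries against 6192 to 19606 in the negative-labelled libraries. The other 6 genes separated the libraries along another line, the one that the authors' deposited comparison draws, and for each of them 3 libraries lay above the remaining 2. Among the 16579 genes with a mean of at least 5, the genes tested here, 26.1% had that division. Non-overlap by label with the lower values in the positive-labelled libraries held for 5.44%. Because the genes were chosen with these values in view, the values are a description, and the only p-values printed for them are copied from the authors' deposited table. The gene lists and cell type markers below were likewise chosen with earlier results of these data known, so their counts are a description too.

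RNA was sequenced from cells of the pelvis-kidney junction, where the renal pelvis joins the kidney, taken from wild-type C57BL/6 mouse embryos at E18.5, shortly before birth. Junctions of all embryos were pooled, dispersed with collagenase, stained with an anti-HCN3 antibody and separated by flow cytometry. The HCN3-positive cells gave 2 libraries and the HCN3-negative cells 3. HCN3 belongs to the cation channels that open on hyperpolarization, and the submitters describe the HCN3-positive cells as urinary tract pacemaker cells. By the labels the groups differ by the sort alone, and the labels do not say that replicates are separate pools. The p-values therefore cover only the variation among these libraries, which may not include variation among pools of embryos. Libraries with the same label also differed widely in cell type markers, as given below.

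Levels are given as normalized read counts, which are read counts divided by the library's size factor. Reads assigned to genes ranged from 24588864 to 39034478 per library. The deposited table compares a group A with a group B. In 100% of its gene rows the deposited fold equalled, at a relative tolerance of 0.01, a ratio of means with HCN3-positive 1 and HCN3-negative 2 (group A) below the line. Group B, above the line, holds HCN3-positive 2, HCN3-negative 1 and HCN3-negative 3. Each authors' group therefore mixes the labels, and the columns do not say which group is HCN3-positive. The table's name gives the comparison as HCN3-negative against HCN3-positive, so groups A and B may be the sorted groups as the authors had them. Whether the labels or the groups of the table follow the sort cannot be told apart here. The libraries of the authors' groups also stood apart in cell type markers. The summed level of 6 leukocyte markers was 345477 to 355888 in group A and 990 to 2092 in group B, while that of 8 pericyte and stromal markers was 3562 to 4318 in group A and 39932 to 67033 in group B. Hcn3 itself, the transcript of the sorted channel, had 0 and 60 reads in the positive-labelled libraries and 116, 29 and 45 reads in the negative-labelled libraries 1, 2 and 3, so it did not follow the labels. The normalized counts of Hcn3 were 0 and 32.2 in group A and 41.9 to 103 in group B. All group B libraries thus lay above both group A libraries, as in 26.1% of all genes tested. The authors' deposited table gave Hcn3 a 3.93-fold higher mean in group B (adjusted p = 0.604), which did not pass. Exons of the neighbouring gene Pklr overlap those of Hcn3, so some of the Hcn3 reads are uncertain. Every direction by label below rests on the labels as given.

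CCN proteins are secreted, matrix-associated signalling proteins that bind integrins, LRP co-receptors and heparan sulfate proteoglycans, and they act on adhesion, migration and matrix production. YAP and TAZ are held in the cytoplasm by the kinases of the Hippo pathway. When cells spread or are stretched, they enter the nucleus and act through the TEAD transcription factors. Cyr61, Ctgf, Ankrd1 and Amotl2 are classic targets of that complex, and Cyr61 is also an immediate early gene, transcribed within minutes of serum, growth factors or mechanical stress. In the renal pelvis and ureter, which are stretched by urine, these genes are of interest in smooth muscle, stroma and vessels.

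TEAD factors bind a short core, CATTCC, and the bases before the transcription start are shown because the RefSeq table of promoters (GRCm38.p6) holds 3 of the 7 genes: Cyr61, Ankrd1 and Amotl2. Each line gives the 250 bases upstream of the RefSeq start, 5′ to 3′ on the gene's own strand. The windows lie at chr3:145649986-145650235 (minus strand) for Cyr61, chr19:36119845-36120094 (minus strand) for Ankrd1 and chr9:102717554-102717803 (plus strand) for Amotl2. The RefSeq starts of Ankrd1 and Amotl2 lie inside the GENCODE M21 gene bounds given below, so their windows fall within those bounds. Capitals mark the TEAD core CATTCC, read as GGAATG where it lies on the other strand, and in Cyr61 also the TATA box TATAAA.
Cyr61: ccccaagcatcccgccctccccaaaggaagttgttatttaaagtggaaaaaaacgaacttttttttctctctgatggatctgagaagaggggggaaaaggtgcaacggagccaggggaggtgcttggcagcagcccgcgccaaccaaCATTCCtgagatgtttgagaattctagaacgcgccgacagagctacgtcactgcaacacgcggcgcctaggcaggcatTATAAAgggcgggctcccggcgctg
Ankrd1: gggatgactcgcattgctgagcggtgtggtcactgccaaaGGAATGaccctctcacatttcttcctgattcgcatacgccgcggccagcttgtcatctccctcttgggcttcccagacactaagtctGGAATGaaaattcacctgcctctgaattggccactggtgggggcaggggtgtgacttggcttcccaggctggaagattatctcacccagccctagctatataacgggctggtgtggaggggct
Amotl2: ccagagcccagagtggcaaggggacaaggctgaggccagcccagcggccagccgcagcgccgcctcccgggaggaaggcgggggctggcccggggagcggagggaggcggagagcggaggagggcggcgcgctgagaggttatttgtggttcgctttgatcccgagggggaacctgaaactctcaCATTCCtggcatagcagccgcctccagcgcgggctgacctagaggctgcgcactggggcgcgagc
The core occurred in all 3 windows. In Cyr61 it lay 103 to 98 bases before the start, and the TATA box lay 25 to 20 bases before it. Ankrd1 held the core at 210 to 205 and again at 123 to 118 bases before the start, and Amotl2 at 65 to 60 bases. Of 32851 promoter windows of this length, 12.6% held CATTCC on either strand and 12.4% held TATAAA. An AP-1 site (TGANTCA, in 6.75% of windows) and a CArG box, the motif of serum response factor (in 1.47% of windows), were also searched on both strands and matched in none of the 3 windows. The matches did not overlap each other. A match is a run of letters in the sequence, and binding was not measured.

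Cyr61 (Ccn1; chromosome 3, 145646976 to 145649981, minus strand, GRCm38, GENCODE M21) encodes a CCN protein that supports adhesion and vessel growth. Its normalized count was 1314 and 3556 in the positive-labelled libraries 1 and 2. It was 19606, 6192 and 11096 in the negative-labelled libraries 1, 2 and 3. Both libraries labelled positive were low and the labelled groups did not overlap. The means were 2435 ± 1586 (SD, n = 2) and 12298 ± 6787 (SD, n = 3), a 5.05-fold lower mean in the positive-labelled libraries. The fitted log2 fold change, positive over negative, on log2(normalized count + 1), was -2.35 (SE 0.65).

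Since the labelled groups did not overlap, the Cyr61 difference had to have the same direction inside both of the authors' groups. Only its size is described here. Within group A the library labelled negative was 4.71-fold above the one labelled positive. Within group B the mean of the negative-labelled libraries was 4.32-fold above the library labelled positive. With each library left out in turn the log2 fold change ran from -3.07 to -1.63, the latter without HCN3-positive 1. Its sign could not change, for the same reason.

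Ctgf (Ccn2; chromosome 10, 24595442 to 24598683, plus strand) encodes connective tissue growth factor, a matrix-inducing CCN protein of fibroblasts, smooth muscle and podocytes. Its normalized count was 1116 and 4864 in the positive-labelled libraries 1 and 2. It was 10828, 1007 and 4981 in the negative-labelled libraries 1, 2 and 3. HCN3-positive 1 and HCN3-negative 2 were both low and near each other, so the labelled groups overlapped. The log2 fold change by label was -0.70 (SE 1.17). It ran from -1.76 without HCN3-positive 2 to 0.36 without HCN3-positive 1, and it was also above 0 without HCN3-negative 1. An antisense gene, Gm15270, overlaps Ctgf exons, and no source used here says that strand was kept. How reads in the overlap were counted is not known, so the Ctgf count may miss some reads or include some of Gm15270.

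Nov (Ccn3; chromosome 15, 54745702 to 54754039, plus strand) encodes a CCN protein that often opposes Ctgf in matrix production and can bind Notch1. Its normalized count was 40.9 and 106.8 in the positive-labelled libraries 1 and 2, and 175.5, 35.5 and 209 in the negative-labelled libraries 1, 2 and 3. The low pair was again HCN3-positive 1 and HCN3-negative 2, at 29 and 32 reads, and the labelled groups overlapped. The log2 fold change by label was -0.72 (SE 1.08), and -0.04 without HCN3-positive 1.

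Wisp1 (Ccn4; chromosome 15, 66891320 to 66923201, plus strand) is a Wnt-induced CCN gene of mesenchymal cells. Its normalized count was 199 and 1210 in the positive-labelled libraries 1 and 2, and 1446, 170 and 1388 in the negative-labelled libraries 1, 2 and 3. It fell into a low pair and a high trio with no library between, and each of the pair came from a different label. The log2 fold change by label was -0.51 (SE 1.27), and 0.79 without HCN3-positive 1.

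Wisp2 (Ccn5; chromosome 2, 163820861 to 163833146, plus strand) encodes the CCN protein that lacks the C-terminal module of its relatives. It had 0 reads in HCN3-positive 1 and in HCN3-negative 2, 7 in HCN3-positive 2, and 36 and 11 in HCN3-negative 1 and 3. At these depths 3 reads, the limit that a count of 0 allows, correspond to a normalized count of 4.23 in HCN3-positive 1 and 3.33 in HCN3-negative 2. The gene was thus near the detection limit in every library except HCN3-negative 1, where its normalized count was 32.1. Such limits cover counting error only. Wisp3 (Ccn6), the sixth CCN gene, which was not among the 7, had at most 19 reads in any library.

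Ankrd1 (chromosome 19, 36111961 to 36120099, minus strand) encodes an ankyrin repeat protein of the sarcomere and nucleus of muscle cells. It had 0 and 91 reads in the positive-labelled libraries 1 and 2, and 100, 6 and 37 in the negative-labelled libraries 1, 2 and 3. Its normalized counts were 67.5 in HCN3-positive 2 and 89.1, 6.66 and 34.4 in the negative-labelled libraries. The library labelled HCN3-positive 2 lay between the negative-labelled libraries 1 and 3. The log2 fold change by label was -1.81 (SE 2.20) on log2(normalized count + 1), but -0.30 in edgeR and -0.36 in DESeq2 on the recovered reads. The first of these turned from -4.86 without HCN3-positive 2 to 1.24 without HCN3-positive 1.

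Amotl2 (chromosome 9, 102716672 to 102733418, plus strand) encodes an angiomotin-like junction protein that binds YAP and restrains it, so that its induction forms a feedback loop. Its normalized count was 1073 and 2209 in the positive-labelled libraries 1 and 2, and 2785, 708 and 3066 in the negative-labelled libraries 1, 2 and 3. HCN3-negative 2 was the lowest of all, below both libraries labelled positive. The log2 fold change by label was -0.24 (SE 0.76). It was 0.28, 0.06 and 0.13 without HCN3-positive 1, HCN3-negative 1 and HCN3-negative 3.

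**Figure D1:**
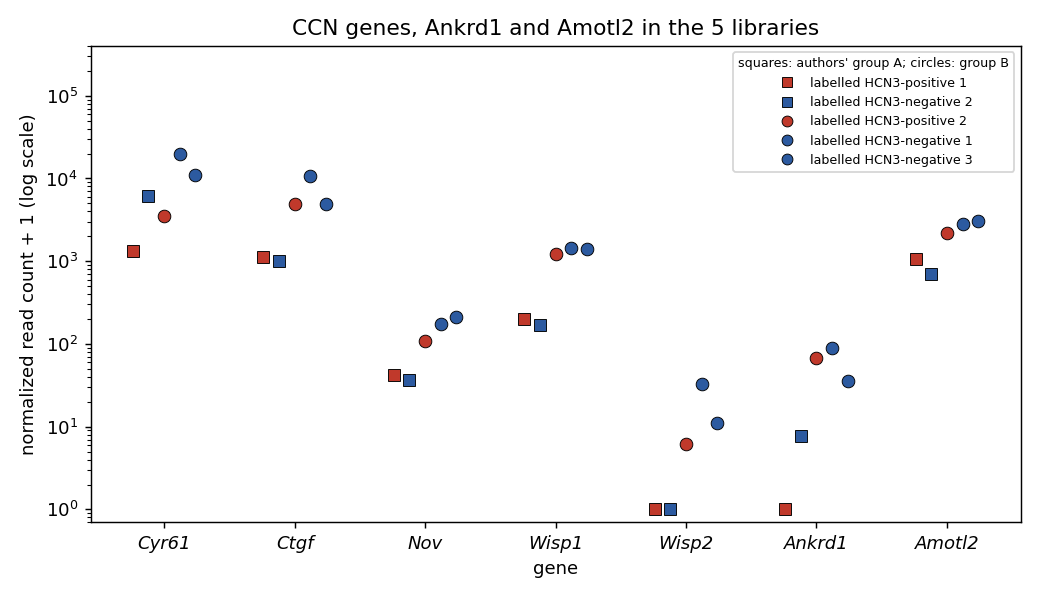
Normalized read count plus 1 (vertical axis, log scale) of the 7 genes (horizontal axis). Points are single libraries, red for the label HCN3-positive and blue for HCN3-negative, squares for the authors' group A and circles for group B. Cyr61 has both red points below all blue points, as do 5.44% of all genes tested. The other 6 genes have both squares below all circles, as do 26.1% of all genes tested.

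By label, 1 of the 7 genes had groups that did not overlap with the lower values in the positive-labelled libraries, while among 16579 genes with a mean of at least 5 this held for 5.44%. In limma, which fits all genes together, 0 of these 16579 genes (0.0%) passed an adjusted p of 0.05, the 7 included, and 157 had an unadjusted p under 0.05. On reads recovered from the normalized counts, edgeR called 0 genes (165 unadjusted). DESeq2 called 10, or 0.0603% (464 unadjusted), and none of these was one of the 7. All 7 log2 fold changes by label were below 0, with a median of -0.72 against -0.03 over all genes tested, but without HCN3-positive 1 the median of the 7 was 0.28 and 4 lay above 0. Within both of the authors' groups at once, 1 of the 7, Cyr61, was lower in the positive-labelled libraries, against 16.5% of all genes tested. For Cyr61 this follows from the lack of overlap by label.

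**Figure D2:**
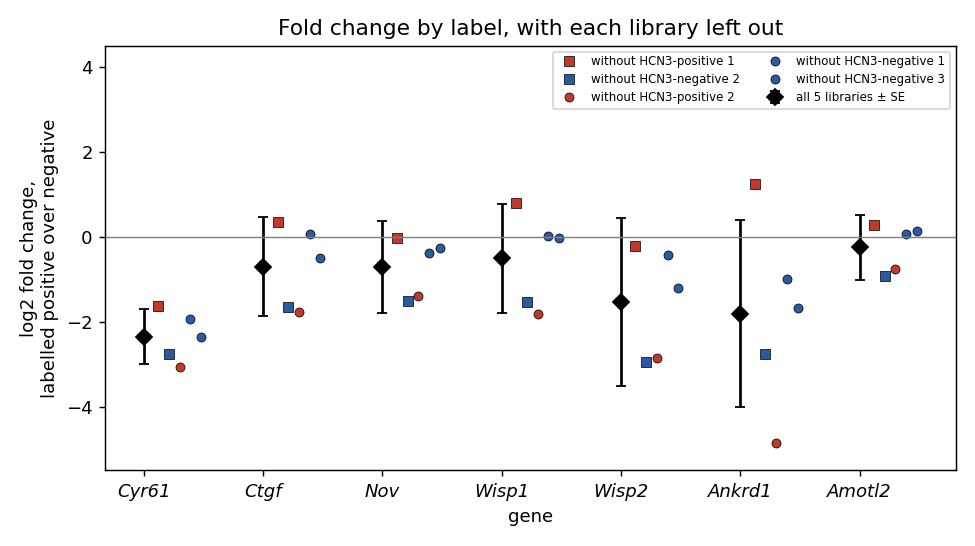
Log2 fold change, labelled HCN3-positive over labelled HCN3-negative (vertical axis), for each gene (horizontal axis). Black diamonds are the fit over 5 libraries with bars of 1 SE, and coloured points are fits with 1 library left out. Cyr61 stays between -3.07 and -1.63, while Ctgf, Wisp1, Ankrd1 and Amotl2 lie on both sides of 0.

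Cyr61 shares the class of immediate early genes with the AP-1 and Egr factors. Of 23 such genes and dissociation response genes, 23 had a log2 fold change by label below 0, with a median of -1.61. Of all 16579 genes tested, 8708 lay below 0. The list was chosen with earlier results of these data known, so its counts are a description. For 12 of the 23 the label groups did not overlap, with the lower values in the positive-labelled libraries, against 5.44% of all genes tested. In limma 0 of the 23 passed (9 unadjusted), and edgeR called 0 (8 unadjusted), whereas DESeq2 called 2, Egr1 and Ppp1r15a. The smallest p in limma belonged to Egr1, Ppp1r15a, Ier2 and Egr2, with log2 fold changes of -2.97, -2.18, -1.36 and -2.91. Without HCN3-positive 2, 17 of the 23 lay below 0 and the median was -0.54, and without HCN3-positive 1 it was -2.58. Within both of the authors' groups 20 of the 23 were lower in the library or libraries labelled positive, again against 16.5% of all genes. The 12 genes without overlap by label are among these 20 by necessity. Arc, an immediate early gene best known from neurons, was the second most like Cyr61 in pattern, after the cadherin Fat3. Likeness was measured as the root mean square difference in log2 level, each gene centred on its mean over the 5 libraries, and it was 0.39 for Arc and 0.37 for Fat3. The next were Gimap9, Ust and Bbs10, at 0.46, 0.52 and 0.55. Arc had normalized counts of 151 and 213 in the positive-labelled libraries, and 1384, 647 and 686 in the negative-labelled libraries. On the same measure the other members differed from Cyr61 by 0.96 for Nov to 1.62 for Ankrd1. Proximal tubule markers moved with the labels as well. Within both of the authors' groups 6 of 7 were lower in the positive-labelled libraries, against 16.5% of all genes tested. Their summed levels were 4240 and 6972 against 9796 to 33371. For 6 of 7 the label groups did not overlap, with the lower values in the positive-labelled libraries, again against 5.44% of all genes tested. Non-overlap by label fixes the direction within both groups, so these counts of the list are not separate results. DESeq2 also called Fbp1 of this list. Collecting duct markers lay the other way, with summed levels of 20853 and 58600 in the positive-labelled libraries against 8245 to 19010. The part of either list in the Cyr61 result was not tested.

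Cyr61 and Ctgf made up most of the CCN transcripts in each library. On the scale of normalized counts per kilobase of exon (GENCODE M21), summed over the 6 CCN genes, Cyr61 took 59.6% and 47.2% in the positive-labelled libraries 1 and 2. It took 70.2%, 88.4% and 72.6% in the negative-labelled libraries 1, 2 and 3. Ctgf took 35.8% and 45.6%, and 27.3%, 10.1% and 23.0%, in the same order. The share of Cyr61 was thus lower in both libraries labelled positive, and it was highest in HCN3-negative 2, where Ctgf was at its lowest. The ratio of Cyr61 to Ctgf per kilobase was 1.67 and 1.04 in the positive-labelled libraries, and 2.57, 8.72 and 3.16 in the negative-labelled libraries. Wisp1 took 0.879% to 5.83%, Nov 0.357% to 1.31%, and Wisp2 at most 0.120%.

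**Figure D3:**
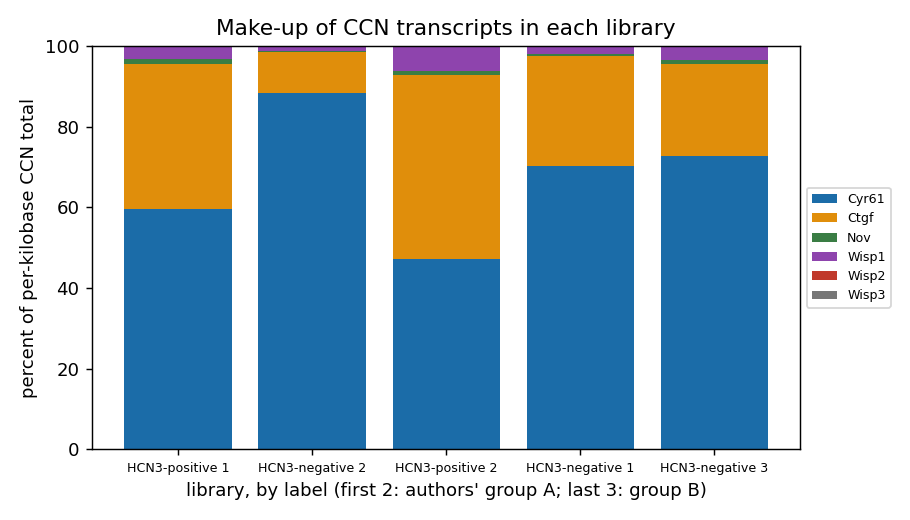
Share of each CCN gene in the summed CCN level per kilobase of exon (vertical axis, percent) in each library (horizontal axis, by label). Cyr61 ranges from 47.2% in HCN3-positive 2 to 88.4% in HCN3-negative 2.

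In the authors' own comparison the genes other than Cyr61 lay on the side of group B. Of the 7 genes, 6 had all group B libraries above both group A libraries, an arrangement found in 26.1% of all genes tested. An adjusted p under 0.05 in the authors' deposited table was reached by 3 of the 7, all higher in group B. Of all genes 6.09% passed as higher in group B and 8.1% as higher in group A. Since the genes were chosen with these values known, nothing is read from these counts. The authors' deposited table gave Wisp1 a 7.31-fold higher mean in group B (adjusted p = 4.9e-07). It gave Ctgf 6.49-fold (adjusted p = 0.0335) and Amotl2 3.02-fold (adjusted p = 0.00211). Nov was 4.29-fold and Ankrd1 19.1-fold higher in that table, with adjusted p of 0.135 and 0.112, and neither passed. Cyr61 was 3.04-fold higher with an adjusted p of 0.640 in the authors' deposited table, and its groups overlapped, because HCN3-negative 2 in group A (6192) exceeded HCN3-positive 2 in group B (3556). Without HCN3-negative 2 the ratio of the Cyr61 means was 8.69. Without HCN3-positive 1 it was 1.84, and without HCN3-negative 1 it was 1.95. Wisp2, at 0 reads in group A, was at least 4.19-fold higher in group B against 3 reads per library, and at least 2.04-fold without HCN3-negative 1. The Ankrd1 ratio was 9.56 without HCN3-positive 1.

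The genes most like Ctgf were Olfml2b, Zfp532, Antxr1, Fbn1 and Kcp, with root mean square differences of 0.20, 0.21, 0.21, 0.22 and 0.23 (log2). Fbn1, the microfibril protein of elastic tissue, had normalized counts of 492 and 3331 in the positive-labelled libraries and 6838, 636 and 2923 in the negative-labelled libraries. Antxr1, a collagen-binding receptor of stromal cells, had 131 and 605, and 1032, 121 and 426. Both showed the low pair of group A. Among the 7 genes, Wisp1 was the nearest to Ctgf, at 0.39, followed by Nov at 0.52 and Amotl2 at 0.64, with Cyr61 at 1.03 and Ankrd1 at 1.37.

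Markers of several cell types followed the same division. In the authors' deposited table all 8 pericyte and stromal markers and 5 of 7 smooth muscle markers passed as higher in group B. All 6 leukocyte markers passed as higher in group A. Of all genes, 6.09% passed as higher in group B and 8.1% as higher in group A. All 7 smooth muscle markers had every group B library above both group A libraries, an arrangement found in 26.1% of all genes tested. The summed smooth muscle level was 4418 to 6422 in group A and 24339 to 130814 in group B. Endothelial markers summed to 5802 to 6316 and 24059 to 88232, and podocyte markers to 9556 to 15129 and 39501 to 330779. All 7 endothelial and 5 of 7 podocyte markers had every group B library above both group A libraries, again against 26.1% of all genes tested. However, 1 endothelial and 0 podocyte markers passed in the authors' deposited table. The ratio of summed means, group B over group A, was 12.5 for stroma, 15.4 for smooth muscle, 8.41 for endothelium and 3.81 for the 7 genes. Which cells carried the CCN transcripts was not tested, and in bulk RNA fewer cells of a type and less RNA per cell cannot be told apart.

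**Figure D4:**
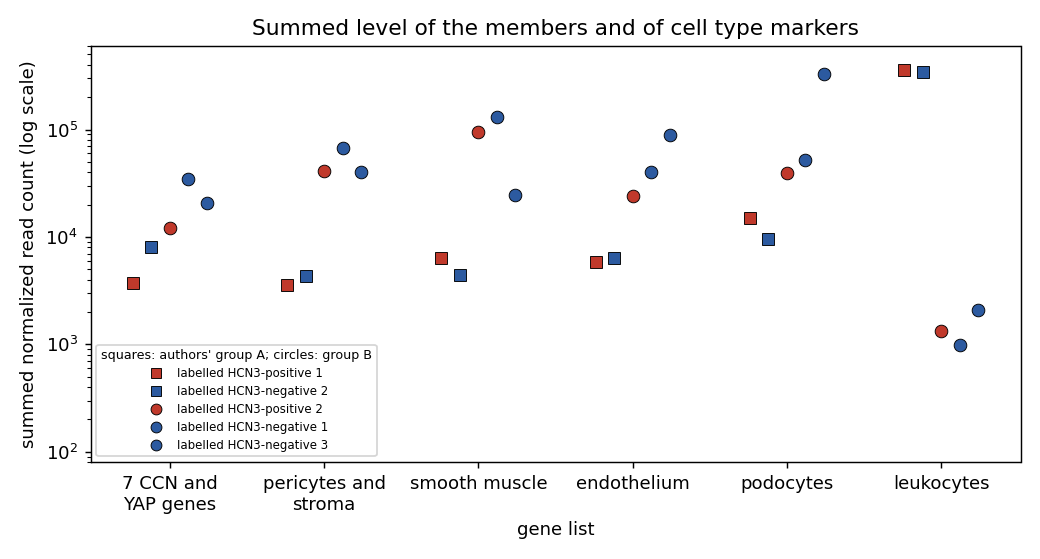
Summed normalized read count (vertical axis, log scale) of the 7 genes and of the marker lists (horizontal axis) in each library. Symbols are as labelled in the legend. The leukocyte sum is 345477 to 355888 in group A and 990 to 2092 in group B, and the other lists shown are lower in group A.

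The transcripts of YAP, TAZ and most TEAD factors were higher in group B too. Of 24 genes of the Hippo pathway, the authors' deposited table called 11 higher in group B and 2 higher in group A. Of all genes, it called 6.09% higher in group B and 8.1% higher in group A. Yap1 had normalized counts of 889 and 2922 in the positive-labelled libraries, and 2407, 809 and 2232 in the negative-labelled libraries. The authors' deposited table gave it 2.97-fold (adjusted p = 0.00283) and Wwtr1, which encodes TAZ, 4.05-fold (adjusted p = 8.24e-05) in favour of group B. Of the TEAD factors, Tead1 and Tead2 were 3.93-fold and 5.89-fold higher in group B in the authors' deposited table (adjusted p = 0.00121 and 1.99e-06). Tead4 had 0 reads in both group A libraries (adjusted p = 0.000108 in the authors' deposited table). Against 3 reads per library it was at least 33.3-fold higher in group B, and at least 22.9-fold without HCN3-negative 3. Such bounds cover counting error in group A only. Tead3 did not pass (adjusted p = 0.410 in that table).

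Upstream of YAP, the genes of the pathway did not all lie on one side. The protocadherins Fat4 and Dchs1, receptor and ligand at the cell surface, were 8.80-fold and 7.92-fold higher in group B in the authors' deposited table. Its angiomotins Amot and Amotl1, the relatives of Amotl2, were 3.87-fold and 6.30-fold higher, and the scaffolds Frmd6 and Ajuba 3.72-fold and 2.71-fold. The kinase gene Stk4 (MST1) and the kinase activator Mob1a lay the other way, 2.93-fold and 2.47-fold higher in group A in the authors' deposited table (adjusted p = 0.000568 and 0.00843). The other 11 of the 24, among them Stk3, Lats1, Lats2, Sav1 and Nf2, did not pass there. By label, 0 of the 24 passed in limma, 9 lay above and 15 below 0, and the median was -0.14. The smallest p by label was that of Wwc1, a scaffold also called KIBRA, at 1989 and 2254 in the positive-labelled libraries and 1230, 1364 and 928 in the negative-labelled libraries. The fit gave a log2 fold change of 0.87 (SE 0.29), an unadjusted p of 0.0286 and an adjusted p of 1.00 in limma. Amot, Lats2 and Fat4 followed, with log2 fold changes of -1.69, -0.55 and -1.26. Without HCN3-positive 1, 16 of the 24 lay above 0 and the median was 0.19.

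**Figure D5:**
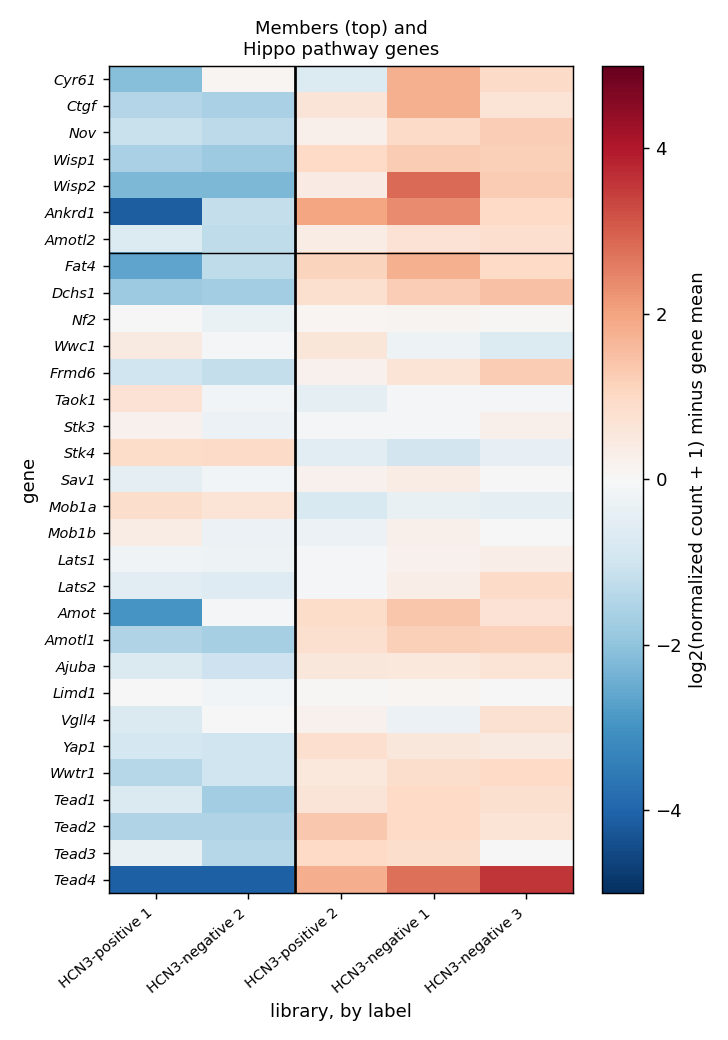
Level of the 7 genes (top rows) and of 24 Hippo pathway genes (lower rows) in each library (columns), as log2(normalized count + 1) minus the gene's mean over the 5 libraries. Red marks values above and blue values under the mean, and the vertical line divides the authors' group A (left) from group B (right). Yap1, Wwtr1, Tead1, Tead2 and Tead4 are blue on the left and red on the right, and Stk4 and Mob1a show the reverse.

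Other target genes of YAP and TAZ were mixed. The 18 genes used came from a signature of such targets, leaving out the 7 genes (Lats2 is also among the 24 Hippo pathway genes). Of the 18, the authors' deposited table called 6 higher in group B and 2 higher in group A, against 6.09% and 8.1% of all genes. Higher in group B were Igfbp3, which binds insulin-like growth factors (10.3-fold), the matrix gene Ccdc80 (7.85-fold), Arhgef17 (4.62-fold), Rbms3 (3.73-fold), the phosphatase gene Ptpn14 (3.10-fold) and the ligand Tgfb2 (3.04-fold), in the authors' deposited table. The receptor kinase Axl was 2.37-fold and the kinase Nuak2 3.78-fold higher in group A in that table. Axl, which macrophages express, had normalized counts of 17314 and 22278 in group A and 6482 to 9372 in group B. By label, 17 of the 18 passed the filter on low values, 0 of them passed in limma (0 unadjusted), and 6 lay above and 11 below 0 with a median of -0.27. Without HCN3-positive 1 the median was 0.07, with 9 above and 8 below. Nt5e, Crim1, Lats2 and Igfbp3 had the smallest p by label, with log2 fold changes of 1.06, -0.84, -0.55 and -1.43, and none passed.

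Genes for the receptors of CCN proteins lay on both sides. Of 12 such genes, the authors' deposited table called 1 higher in group B and 3 higher in group A, against 6.09% and 8.1% of all genes. Itgam and Itgb2, the chains of the leukocyte integrin that binds Cyr61 and Ctgf on macrophages, were 216-fold and 91.7-fold higher in group A in the authors' deposited table. Itgam lay at 18921 and 12369 in group A and at 50.8 to 115 in group B. Lrp1, an endocytic receptor of Ctgf, was 3.82-fold higher in group A, and Itgb3, a chain of the vitronectin receptor, 4.22-fold higher in group B, in that table. By label, 0 of the 12 passed in limma (0 unadjusted), and 3 lay above and 9 below 0. The smallest p belonged to Itgb1, Itgb3, Itgb5 and Itga6, with log2 fold changes of -0.69, -1.65, -0.77 and -0.24.

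Serum response factor and its MRTF co-activators share many mechanically regulated targets with YAP. Of 14 genes of that list, the authors' deposited table called 5 higher in group B and 0 in group A, against 6.09% and 8.1% of all genes. The 5 were the smooth muscle genes Cnn1 (28.2-fold), Myl9 (20.9-fold) and Acta2 (18.0-fold), with Fhl2 (9.37-fold) and Vcl (3.07-fold). The list shares 3 genes, Acta2, Tagln and Cnn1, with the smooth muscle markers. By label, 0 of the 14 passed in limma (0 unadjusted), with 6 above and 8 below 0 and a median of -0.05. Mkl1, Fhl2, Zyx and Vcl had the smallest p, with log2 fold changes of 0.61, -0.73, 0.18 and -0.34. Of the 14 genes, 1 was lower in the positive-labelled libraries within both of the authors' groups, against 16.5% of all genes tested. Of the 23 immediate early and dissociation response genes, the authors' deposited table called 2, Hspa1a and Hspa1b. Both were higher in group A, a direction in which 8.1% of all genes passed.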

How the data were processed

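Per the submitters' processing notes, the tools included TopHat2 2.0.11, HTSeq 0.6.1p2 and DESeq 1.18.0, with the genome build mm10. The gene annotation behind the counts is not named in the labels used here. A single table was deposited. Its signal columns hold, per the file headers, read counts divided by a size factor for each library, and their mean. It also holds, per the file headers, the ratio (fold) of group B over group A, its log2 value, the p-value and the adjusted p-value of the authors' comparison. All columns of library values were used. The 3 summary rows of the read counter (reads aligned in more than 1 place, 13.5% to 18.7%, reads in no gene, 8.58% to 14.0%, and ambiguous reads, 0.792% to 2.32% of all reads) were left out.

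To recover whole reads, the smallest nonzero value of a library was taken as 1 read, and 100% of nonzero values came out whole within 0.01. Libraries were grouped by title. Labels were compared with limma 3.58.1 and its trend option (R 4.3.3), using log2(normalized count + 1) of the 16579 genes whose mean was at least 5. Adjustment (Benjamini-Hochberg) covered all of them. On that scale the fold change of a gene with few reads depends on the pseudocount. Alternatives were edgeR 4.0.16 and DESeq2 1.42.0 on the recovered reads, other pseudocounts, filters, TMM scaling, a replicate block and leaving out each library. The limma code was tested on simulated data. Gene coordinates and exon lengths are from GENCODE M21 (GRCm38, the mm10 assembly), in which CCN genes carry their newer names. Promoter windows follow the RefSeq starts.

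The members, the gene lists and the markers were chosen with earlier results of these data known. By rule the text names the 7 members, up to 4 genes per list with the smallest p by label, and the 5 genes most like Cyr61 and Ctgf among those with a mean of at least 100, leaving out predicted, clone-named and ribosomal protein names. List genes called in the authors' table, Wisp3, Stk3, Lats1, Lats2, Sav1, Nf2, Yap1, Tead3 and Fbp1 were named after their values were seen. Further marker lists gave summed levels, group A then group B, of 906 to 1962 and 284 to 7286 for urothelium, 19010 to 58600 and 8245 to 20853 for the collecting duct, and 1183 to 1492 and 907 to 59762 for erythroid cells.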

Additional observations from a re-analysis of the deposited data

How the results depend on the processing

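By label, limma called 0 genes with every pseudocount, filter, scaling and left-out library tried, as did edgeR. DESeq2 on the recovered reads called 10 genes. Of these, 2 were on the list of immediate early and dissociation response genes, and Fbp1 was on the proximal tubule list. Leaving out each library gave 0 to 0 called genes for all genes and for each list. The median log2 fold change of the 7 genes, -0.72, ran from -1.81 without HCN3-positive 2 to 0.28 without HCN3-positive 1. With a mean of at least 50 required, 5 of the 7 remained in the test. Cyr61 stayed below 0 in each alternative run, from -3.07 to -1.63, and so did Nov and Wisp2. For Cyr61 the sign with a library left out was fixed, since its labelled groups did not overlap. Ctgf and Wisp1 lay above 0 without 2 of the 5 libraries, Amotl2 without 3 and Ankrd1 without 1. Ankrd1, with at most 100 reads, also moved with the pseudocount, from -2.27 with 0.5 to -0.99 with 4, and was -0.30 in edgeR and -0.36 in DESeq2, against -1.81.

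The titles number the libraries, but with only 2 numbers shared between the labels nothing shows that a number marks a common pool. Deviations of same-numbered libraries from their label's mean correlated at -0.53 for number 1 and -0.69 for number 2. With only 2 positive-labelled libraries their deviations are mirror images, so these values cannot decide whether numbers mark pools. The value for number 2 mirrors the 0.69 of HCN3-positive 1 with HCN3-negative 2, the libraries of group A. With the number as a replicate block, limma called 0 genes (26 unadjusted), the median of the 7 was -0.50, Cyr61 was at -2.35 and Amotl2 at 0.13. Of the 7 genes, 2 passed at 0.01 in the authors' table, a threshold added after seeing the data. Depth limits Wisp2 and Ankrd1, the members with few reads.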
